A study of Homo sapiens with 40 samples.

Results

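The genes described here are 10 Krüppel-like factors (KLFs): KLF2, KLF3, KLF4, KLF5, KLF6, KLF7, KLF9, KLF10, KLF11 and KLF13. They were chosen by name, with earlier results of these data known, from the deposited expression table, which lists 15788 genes. All 10 were among the 12591 genes that were tested, those averaging 1 or more normalised TPM (transcript abundance scaled for gene length and library). After 2 h with vilanterol, KLF4 rose 3.08-fold and KLF9 2.28-fold over vehicle, and with the highest concentration of an EP4 receptor agonist they rose 2.23-fold and 1.71-fold. KLF10 fell to 0.253 and 0.344 of its vehicle level, and KLF5 and KLF6 fell to between 0.757 and 0.824. KLF3 rose and KLF7 fell with vilanterol, whereas KLF2, KLF11 and KLF13 passed the test in no comparison.

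BEAS-2B, an established human airway epithelial line, was grown to confluence, kept overnight without serum and then exposed to the agents for 2 h in all 40 libraries. The 10 groups of 4 libraries were vehicle; RNO at 1 µM; the EP4 prostanoid receptor agonist ONO-AE1-329 (ONO) at 0.1 nM, 1 nM or 1 µM; vilanterol, a long-acting β2-adrenoceptor stimulant, at 100 nM; and those 4 agonist treatments with 1 µM RNO on top. RNO is the labels' name for what this field knows as roflumilast N-oxide, an inhibitor of the cAMP-degrading PDE4 enzymes. The study addressed the genomic effects of an EP4 agonist in airway epithelia, and all groups come from a single line.

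KLFs are zinc finger transcription factors that bind GC-rich and CACCC elements, and members of the family compete for such sites. KLF2, KLF4, KLF5, KLF6 and KLF7 belong to the branch known mainly for activation of transcription. KLF3 recruits the corepressor CtBP, and KLF9, KLF10, KLF11 and KLF13 recruit the corepressor SIN3A. Both receptors stimulated here, EP4 and the β2-adrenoceptor, signal through Gs to raise cAMP, which acts through protein kinase A and, among other routes, through the factor CREB, whose full site is TGACGTCA and whose core is TGACG.

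Of the markers for the line, KRT8 (292 to 470 TPM) and KRT18 (237 to 391 TPM) were abundant, while the epithelial adhesion genes EPCAM (0.0724 to 0.611 TPM) and CDH1 (0.501 to 1.06 TPM) were near 0. The mesenchymal gene VIM lay between 1240 and 1430 TPM. The endothelial genes PECAM1 (0.0546 to 0.182 TPM) and VWF (0.215 to 0.486 TPM) were low, and of 4 leukocyte markers 1 was measured, CD68 at 10.7 to 15.4 TPM. The sum of the 4 measured epithelial markers was 696 to 839 TPM in vehicle, 536 to 689 TPM with 1 µM ONO and 539 to 695 TPM with vilanterol, and that of the 3 mesenchymal markers was 1840 to 2170, 1810 to 2060 and 1860 to 2160 TPM. KRT18 fell to 0.737 and 0.752 of vehicle with these agonists. KRT8, with a mean of 425 TPM in vehicle, fell to 336 TPM with vilanterol and was 341 TPM with 1 µM ONO, where it did not pass the test described below. The part of these keratins in the KLF results was not tested. In bulk RNA, fewer cells of a type and less RNA per cell cannot be told apart. No read counts entered the work, and sequencing depth is therefore unknown. Library medians lay between 8.47 and 9.11 TPM. Vehicle replicate 3 stood apart from its group more than any other library, with an SD of its gene-wise deviations of 0.209 (log2 scale) against 0.099 to 0.169 in the other 39. The labels do not give the origin of the replicates (separate cultures or not), and the p-values therefore reflect only the scatter among these libraries, possibly technical.

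Since KLF4 and KLF9 moved together after cAMP-raising agonists, the 250 bases upstream of the RefSeq starts were searched on both strands for TGACGTCA and for its core TGACG, which on the other strand reads CGTCA. Windows were at hand for 8 of the 10 members, all but KLF3 and KLF10. Each sequence below is written 5′ to 3′ on the gene's strand, with matches in capitals. KLF4 (GRCh38.p14 chr9:107489770-107490019, minus strand) is shown as the member with the most separate core matches, 2, at 247 and 210 bases before the start. KLF11 (60 bases at chr2:10044019-10044078, plus strand) is shown as the member with the full site, 176 bases before 1 of its starts. The full site holds 2 overlapping cores, since it reads the same on both strands.

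KLF4: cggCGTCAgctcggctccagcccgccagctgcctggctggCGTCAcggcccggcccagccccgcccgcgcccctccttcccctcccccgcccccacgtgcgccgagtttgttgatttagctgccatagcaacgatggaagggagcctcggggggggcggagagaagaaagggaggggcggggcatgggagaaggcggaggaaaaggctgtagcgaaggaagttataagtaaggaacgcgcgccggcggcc
KLF11: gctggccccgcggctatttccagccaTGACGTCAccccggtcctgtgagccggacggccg

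A core was also present in a window of KLF5 (14 bases before the start) and of KLF13 (56 bases before it), so 4 of 8 members had at least 1 match. The letters were not in the windows of KLF9, KLF2, KLF6 and KLF7, which says nothing about binding elsewhere. Of 27305 gene symbols with windows of this length, 24.9% held the core and 2.03% the full site in at least 1 window. KLF4, with cores, and KLF9, without, both rose, while KLF11, with the full site, did not pass the test. KLF10, which had the largest change, was without a window. A link between these letters and the changes was not tested.

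**Figure D1:**
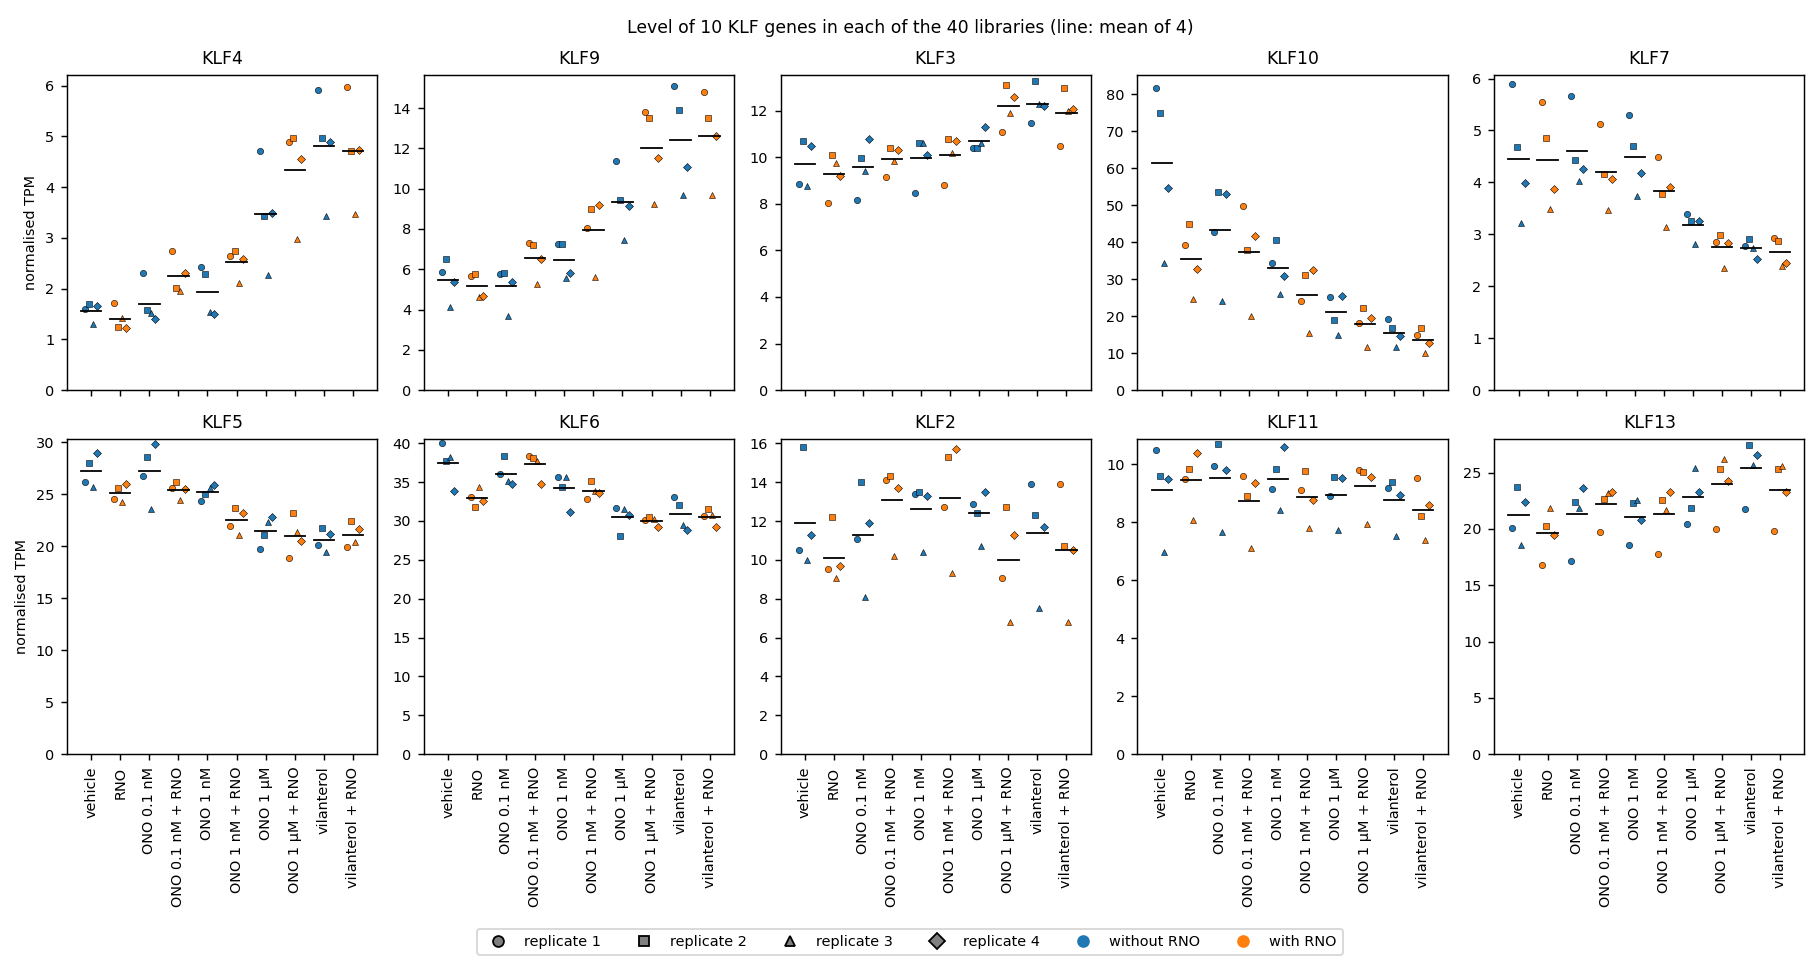
Normalised TPM (vertical axis, from 0) of each of the 10 genes in all 40 libraries, by treatment (horizontal axis); symbols mark the replicate number, orange marks groups with RNO and the line is the mean of 4. KLF4 and KLF9 climb towards the right, KLF10 falls from a vehicle mean of 61.4 to 13.6 TPM with vilanterol and RNO, and KLF2 and KLF11 show replicate 3 as the lowest library in all 10 groups.

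On the length-scaled TPM scale, KLF6 (mean over 40 libraries 33.4 TPM), KLF10 (30.4), KLF5 (23.7) and KLF13 (22.2) were the most abundant members. KLF2 (11.6), KLF3 (10.6), KLF11 (9.06) and KLF9 (8.33) were intermediate, and KLF7 (3.73) and KLF4 (2.87) were lowest. KLF4 lay above 14.6% of the tested genes and KLF6 above 73.4%. Of the remaining KLF genes, KLF16 was at 29.7 TPM, KLF12 at 5.1, KLF15 at 3.09, KLF17 at 0.23 and KLF8 at 0.065.

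Among the activators, KLF4, a factor of epithelial barrier formation and one of the reprogramming factors, rose with both agonists. In vehicle the libraries in the order of their replicate numbers 1 to 4 held 1.59, 1.7, 1.3 and 1.65 TPM, with 1 µM ONO 4.71, 3.42, 2.27 and 3.49 TPM, and with vilanterol 5.92, 4.96, 3.43 and 4.88 TPM. Every treated library lay above every vehicle library, and replicate 3 was lowest in each of these groups. KLF4 was 1.56 ± 0.181 TPM in vehicle (SD, n = 4, as throughout), 3.47 ± 0.994 TPM with 1 µM ONO (2.23-fold) and 4.8 ± 1.03 TPM with vilanterol (3.08-fold). On the log2(TPM + 1) scale, which understates folds of low genes such as this one, the differences were 0.78 (SE 0.15, limma adjusted p = 0.00043) and 1.16 (SE 0.15, adjusted p = 2.5e-07). The adjusted p-values here and below are limma's with Benjamini-Hochberg adjustment over all tested genes, and a gene is said to rise or fall where this value is under 0.05.

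At the lower ONO concentrations KLF4 did not pass the test. The replicates held 2.3, 1.57, 1.52 and 1.4 TPM at 0.1 nM, and 2.43, 2.28, 1.53 and 1.49 TPM at 1 nM, and both groups overlapped vehicle (adjusted p = 0.94 and 0.6). With RNO, the same concentrations gave 2.74, 2.02, 1.95 and 2.3 TPM, and 2.65, 2.74, 2.1 and 2.58 TPM. All 8 of these libraries were above all 4 vehicle libraries, at means of 1.44-fold and 1.61-fold of vehicle, but neither difference passed the test (adjusted p = 0.39 and 0.093). For 1 nM with RNO 5.92% of all tested genes lay clear of vehicle, and for 0.1 nM with RNO that share is not given. With the replicate number as a block in the model, the 0.1 nM difference passed (adjusted p = 0.025). For 1 nM ONO with RNO against vehicle, where same-numbered libraries did not all deviate together, results with the block stand with the processing alternatives, and this holds for all members. RNO alone gave 1.72, 1.25, 1.41 and 1.23 TPM, a log2 difference from vehicle of -0.09 (95% interval -0.4 to 0.21).

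KLF5, a factor of proliferating epithelial progenitors, fell. Its replicates 1 to 4 held 26.2, 28.0, 25.7 and 29.0 TPM in vehicle, 19.7, 21.1, 22.3 and 22.8 TPM with 1 µM ONO, and 20.1, 21.7, 19.4 and 21.2 TPM with vilanterol. No treated library reached the vehicle range. The mean went from 27.2 ± 1.54 to 21.5 ± 1.37 TPM (0.789 of vehicle, log2 difference -0.33, SE 0.06, adjusted p = 0.00014) with ONO and to 20.6 ± 1.06 TPM (0.757, -0.39, SE 0.06, adjusted p = 4.9e-06) with vilanterol. At 1 nM ONO the mean was 25.2 ± 0.731 TPM (adjusted p = 0.42), and with RNO added it was 22.5 ± 1.2 TPM (0.825 of vehicle, adjusted p = 0.004). Fitted on the libraries of that comparison alone, with fewer residual degrees of freedom, this last fall did not pass (adjusted p = 0.08).

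KLF6, a widely expressed growth suppressor and the most abundant member, fell by a similar proportion. Vehicle held 40, 37.7, 38.2 and 33.9 TPM, 1 µM ONO 31.7, 28.0, 31.5 and 30.8 TPM, and vilanterol 33.1, 32.0, 29.5 and 28.8 TPM. The lowest vehicle library, replicate 4, was still above the highest treated one. The means were 37.5 ± 2.53, 30.5 ± 1.72 and 30.9 ± 2.04 TPM, or 0.814 (log2 difference -0.29, SE 0.05, adjusted p = 6e-05) and 0.824 (-0.27, SE 0.05, adjusted p = 6.8e-05) of vehicle. RNO alone gave 33.1, 31.8, 34.4 and 32.6 TPM, lower than vehicle in 4 of 4 same-numbered pairs (0.88 of vehicle). That difference did not pass (adjusted p = 0.13) but did with the replicate block (adjusted p = 0.009) and without vehicle replicate 4 (-0.22, adjusted p = 0.039). At 1 nM ONO the block also moved KLF6 past the threshold (log2 difference -0.12, adjusted p = 0.25 without the block and 0.047 with it), a call lost when vehicle replicate 3 was left out of the blocked fit (adjusted p = 0.12). For 1 nM ONO with RNO, KLF6 differed by -0.14 (adjusted p = 0.11) and passed when vehicle replicate 4 was left out (-0.19, adjusted p = 0.024).

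KLF7, a factor described in neurons and adipocytes, was low and fell with vilanterol. Vehicle was spread widely, with 5.9, 4.68, 3.22 and 3.99 TPM, while vilanterol libraries held 2.77, 2.91, 2.74 and 2.53 TPM. All of the latter were below the lowest vehicle library, replicate 3. The mean fell from 4.45 ± 1.14 to 2.74 ± 0.158 TPM (0.616 of vehicle, log2 difference -0.52, SE 0.12, adjusted p = 0.0018). With 1 µM ONO the replicates held 3.4, 3.26, 2.82 and 3.26 TPM, overlapping vehicle through its replicate 3. The difference of -0.36 did not pass (adjusted p = 0.068), but did with the block (adjusted p = 0.00023) and without vehicle replicate 3 (-0.47, adjusted p = 0.012).

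KLF2, the flow-responsive member best known in endothelium and T cells, passed the test in no comparison. Its vehicle libraries held 10.5, 15.8, 10.0 and 11.3 TPM, and over all 40 libraries it ranged from 6.81 to 15.8 TPM. The log2 differences from vehicle were 0.07 (95% interval -0.32 to 0.45) with 1 µM ONO and -0.07 (-0.46 to 0.31) with vilanterol. The vilanterol interval includes the differences measured for KLF5 and KLF6.

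KLF3, the CtBP-recruiting repressor, rose modestly. Vehicle held 8.85, 10.7, 8.79 and 10.5 TPM and vilanterol 11.5, 13.3, 12.3 and 12.2 TPM, with no overlap. The mean went from 9.72 ± 1.04 to 12.3 ± 0.722 TPM (1.27-fold, log2 difference 0.31, SE 0.08, adjusted p = 0.0039). With 1 µM ONO the libraries held 10.4, 10.4, 10.6 and 11.3 TPM, within or just above the vehicle range. That difference (0.13, adjusted p = 0.4) passed with the block (adjusted p = 0.042), but not when vehicle replicate 3 was also left out (0.08, adjusted p = 0.23). With RNO added to 1 µM ONO the libraries held 11.1, 13.1, 11.9 and 12.6 TPM, all above vehicle (1.25-fold, adjusted p = 0.0067). With vilanterol and RNO they held 10.5, 13.0, 12.0 and 12.1 TPM (1.23-fold, adjusted p = 0.013), a call lost without vehicle replicate 3 (0.23, adjusted p = 0.063) or without replicate 2 of the treated group (0.23, adjusted p = 0.064). On the libraries of each comparison alone, neither KLF3 difference with RNO passed (adjusted p = 0.059 and 0.093).

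Among the SIN3A-recruiting repressors, KLF9, a gene also known to respond to glucocorticoid, rose and KLF10 fell. KLF9 held 5.86, 6.51, 4.13 and 5.37 TPM in vehicle, 11.4, 9.45, 7.45 and 9.15 TPM with 1 µM ONO, and 15.1, 13.9, 9.7 and 11.1 TPM with vilanterol. Every treated library exceeded every vehicle library, with replicate 3 the lowest each time. The means were 5.47 ± 1.01, 9.36 ± 1.63 and 12.4 ± 2.46 TPM. These are folds of 1.71 (log2 difference 0.68, SE 0.16, adjusted p = 0.0031) and 2.28 (1.05, SE 0.16, adjusted p = 3e-06), and within same-numbered pairs the folds ran from 1.45 to 1.95 and from 2.07 to 2.57.

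The lower ONO concentrations placed KLF9 at 5.77, 5.79, 3.69 and 5.37 TPM (0.1 nM) and at 7.25, 7.23, 5.57 and 5.81 TPM (1 nM). The first group lay around the vehicle values, and the second was above its same-numbered vehicle library in 4 of 4 pairs. The 1 nM difference of 0.21 did not pass (adjusted p = 0.54) and did with the block (adjusted p = 0.038), although not when vehicle replicate 3 was left out of the blocked fit (adjusted p = 0.1). With RNO the values were 7.32, 7.18, 5.27 and 6.53 TPM at 0.1 nM and 8.05, 9.0, 5.63 and 9.21 TPM at 1 nM. Each library was again above its same-numbered vehicle partner, but the groups overlapped vehicle and the differences of 0.23 and 0.47 did not pass (adjusted p = 0.59 and 0.096). For 0.1 nM with RNO, KLF9 passed with the block (adjusted p = 0.029), and no longer without vehicle replicate 3 (adjusted p = 0.091). For 1 nM with RNO it passed without replicate 3 of the treated group (0.6, adjusted p = 0.026).

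KLF10, also called TIEG1, an early gene of the TGF-β response, showed the largest fold change of the 10. Vehicle held 81.7, 74.8, 34.3 and 54.7 TPM, 1 µM ONO 25.2, 18.9, 14.9 and 25.5 TPM, and vilanterol 19.2, 16.7, 11.5 and 14.6 TPM. The vehicle libraries differed widely, yet the lowest of them, replicate 3, was above every library of these treatments. The mean fell from 61.4 ± 21.4 TPM to 21.1 ± 5.13 TPM with ONO (0.344 of vehicle, log2 difference -1.45, SE 0.28, adjusted p = 0.00043) and to 15.5 ± 3.27 TPM with vilanterol (0.253, -1.86, SE 0.28, adjusted p = 4.3e-06). At 1 nM ONO with RNO it was 24.2, 31.2, 15.4 and 32.5 TPM, again with no overlap (0.421 of vehicle, adjusted p = 0.008). That call was lost without replicate 3 of the treated group (-0.98, adjusted p = 0.067) and on the libraries of the comparison alone, with fewer residual degrees of freedom (adjusted p = 0.12).

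KLF10 was also lower, without passing the test, in the treatments of smaller effect. RNO alone gave 39.2, 44.8, 24.5 and 32.6 TPM, 0.1 nM ONO 42.7, 53.6, 24.0 and 53.0 TPM, and 1 nM ONO 34.3, 40.5, 25.9 and 30.7 TPM. Each of these libraries was below its same-numbered vehicle library, while all 3 groups overlapped the vehicle range through its replicate 3. The log2 differences were -0.74 (adjusted p = 0.28, with the block 0.0017), -0.48 (0.8, with the block 0.16) and -0.83 (0.19, with the block 0.00018). For 0.1 nM ONO with RNO (49.7, 37.9, 19.9 and 41.6 TPM) the difference was -0.7 (adjusted p = 0.32, with the block 0.0012). With vehicle replicate 3 left out of the blocked fit, the RNO, 1 nM and 0.1 nM with RNO differences still passed (adjusted p = 0.0021, 0.00022 and 0.0013).

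KLF11 (TIEG2) and KLF13 passed in no comparison without the replicate block. KLF11 held 10.5, 9.58, 6.97 and 9.48 TPM in vehicle and 6.97 to 10.7 TPM over all libraries, and its log2 difference with vilanterol was -0.04 (95% interval -0.26 to 0.17). KLF13, a regulator of chemokine expression in T cells, held 20.1, 23.7, 18.6 and 22.4 TPM in vehicle and 21.8, 27.5, 25.7 and 26.6 TPM with vilanterol. The vilanterol libraries of KLF13 were higher in 4 of 4 pairs but overlapped vehicle. The difference of 0.25 did not pass (adjusted p = 0.089), whereas it did with the block (adjusted p = 0.00071), without vehicle replicate 2 (0.3, adjusted p = 0.044) and without vilanterol replicate 1 (0.32, adjusted p = 0.039). For 1 µM ONO with RNO, KLF13 passed with the block (0.17, adjusted p = 0.022) and not when vehicle replicate 3 was also left out (0.08, adjusted p = 0.22). In the latter fit KLF13 did pass for vilanterol (0.16, adjusted p = 0.0065) and for RNO alone (-0.19, adjusted p = 0.015). It also passed there for the interaction with 0.1 nM ONO (0.26, adjusted p = 0.011). KLF11 passed in that fit for vilanterol with RNO (-0.14, adjusted p = 0.033).

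**Figure D2:**
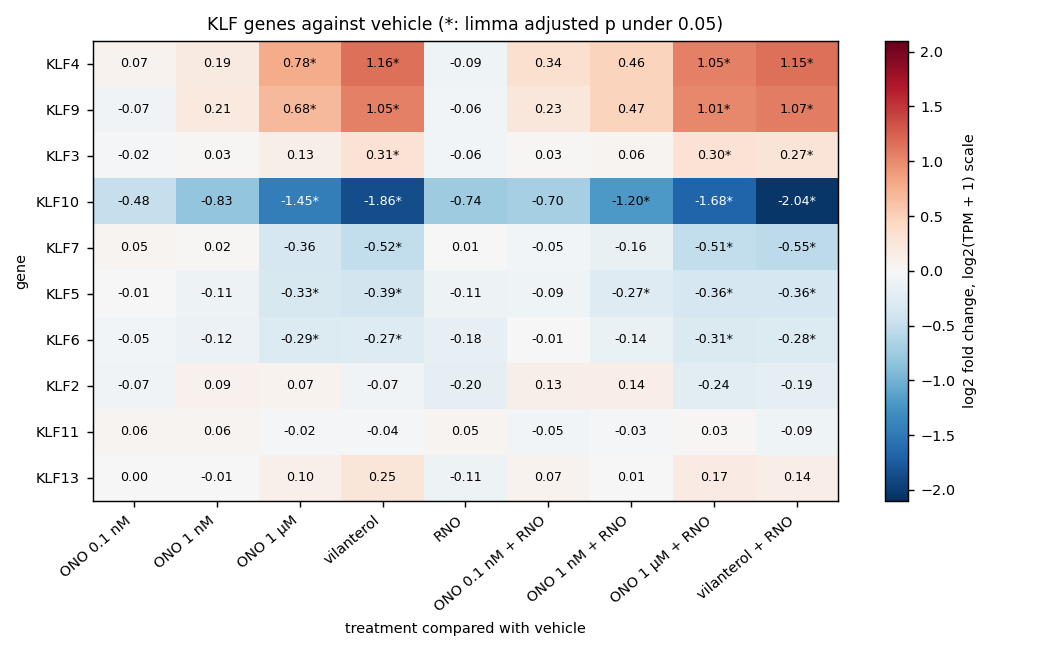
Log2 fold change against vehicle on the log2(TPM + 1) scale for the 10 genes (rows) in the 9 treatments (columns); red is higher, blue is lower and an asterisk marks a limma adjusted p under 0.05. KLF10 has the strongest falls, to -2.04 with vilanterol and RNO, and KLF4 and KLF9 have rises of up to 1.16 and 1.07.

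Counted over the 10 members, 5 passed with 1 µM ONO, where 7.21% of all tested genes passed. Of these members 2 were higher (4.19% of all tested genes) and 3 lower (3.02%). With vilanterol 7 of 10 passed against 17.7% of all tested genes, 3 of them higher (9.69%) and 4 lower (7.97%). With RNO added, 7 of 10 passed for 1 µM ONO (15.8% of all tested genes), 3 higher (8.92%) and 4 lower (6.86%), and 7 of 10 for vilanterol (18.4%), 3 higher (10.0%) and 4 lower (8.44%). For 1 nM ONO with RNO 2 passed (3.45%), both lower (1.27%). The 4 treated libraries lay clear of the 4 vehicle libraries for 5 members with 1 µM ONO (8.38% of all tested genes), 7 with vilanterol (14.9%), 3 with 1 nM ONO and RNO (5.92%), 7 with 1 µM ONO and RNO (14.2%) and 6 with vilanterol and RNO (14.8%). The members' median log2 difference was 0.02 with 1 µM ONO and -0.06 with vilanterol, against -0.003 and -0.009 over all tested genes. Without regard to sign it was 0.31 and 0.35, against 0.066 and 0.085. All 9 comparisons share the vehicle libraries. The 10 members were chosen with earlier results of these data known, so setting them beside all tested genes is no independent test. Of the other KLF genes, KLF12, KLF15 and KLF16 were tested and passed against vehicle in no treatment.

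In the remaining comparisons with vehicle no member passed in limma without the replicate block. Of all tested genes 0.238% passed for RNO alone, 0.0% for 0.1 nM ONO, 1.01% for 1 nM ONO and 1.12% for 0.1 nM ONO with RNO. At an unadjusted p under 0.05 there were 2 members for RNO (12.3% of all tested genes), 0 for 0.1 nM ONO (5.85%), 2 for 1 nM ONO (13.4%) and 2 for 0.1 nM ONO with RNO (11.2%). With the replicate block the members passing were 2 for RNO (5.11% of all tested genes), 3 for 1 nM ONO (8.47%) and 3 for 0.1 nM ONO with RNO (5.12%).

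The combinations with RNO gave KLF4 4.34 ± 0.929 TPM with 1 µM ONO (2.79-fold of vehicle, adjusted p = 2.3e-06) and 4.72 ± 1.03 TPM with vilanterol (3.03-fold, adjusted p = 3.5e-07). KLF9 was 12.0 ± 2.11 TPM (2.2-fold, adjusted p = 7.2e-06) and 12.6 ± 2.15 TPM (2.31-fold, adjusted p = 1.9e-06). KLF10 was 17.9 ± 4.45 TPM (0.292 of vehicle, adjusted p = 2.7e-05) and 13.6 ± 2.87 TPM (0.222, adjusted p = 7.8e-07). These are the genes with the largest changes, KLF4 and KLF9 above and KLF10 below vehicle. KLF7 fell to 0.62 of vehicle with 1 µM ONO and RNO (adjusted p = 0.0023, and 0.059 on those libraries alone) and to 0.598 with vilanterol and RNO (adjusted p = 0.00085). KLF5 fell to 0.771 (adjusted p = 1.6e-05) and 0.774 (adjusted p = 1.9e-05), and KLF6 to 0.802 (adjusted p = 1e-05) and 0.816 (adjusted p = 3.3e-05).

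What RNO added to each agonist was tested directly, and no member passed in limma without the replicate block. For RNO added to 0.1 nM, 1 nM and 1 µM ONO, 0.723%, 0.238% and 0.604% of all tested genes passed, and for RNO added to vilanterol 0.0%. At an unadjusted p under 0.05 there were 0, 1, 2 and 0 members, beside 5.49%, 4.41%, 7.73% and 1.43% of all tested genes. KLF9 was higher with RNO in 4 of 4 same-numbered pairs at each ONO concentration, by 1.28-fold, 1.23-fold and 1.28-fold (log2 differences 0.31, 0.25 and 0.33, adjusted p = 0.94, 1.0 and 0.62). With the replicate block these differences in KLF9 passed (adjusted p = 0.0039, 0.044 and 0.002). For vilanterol the KLF9 difference was 0.02 (95% interval -0.29 to 0.34). KLF4 was higher in 4 of 4 pairs at each ONO concentration too, by a log2 difference of 0.27 each time, and did not pass with the block either (adjusted p = 0.14, 0.2 and 0.12). KLF3 passed with the block when RNO was added to 1 µM ONO (1.14-fold, adjusted p = 0.58 without and 0.02 with the block). In the other direction, KLF5 was lower with RNO added to 1 nM ONO, at 21.1 to 23.7 TPM against 24.3 to 25.9 TPM. It passed there neither without nor with the block. The share of all tested genes without overlap is not given for this comparison. The blocked counts of 1, 1 and 2 members stood beside 2.58%, 1.2% and 3.69% of all tested genes.

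**Figure D3:**
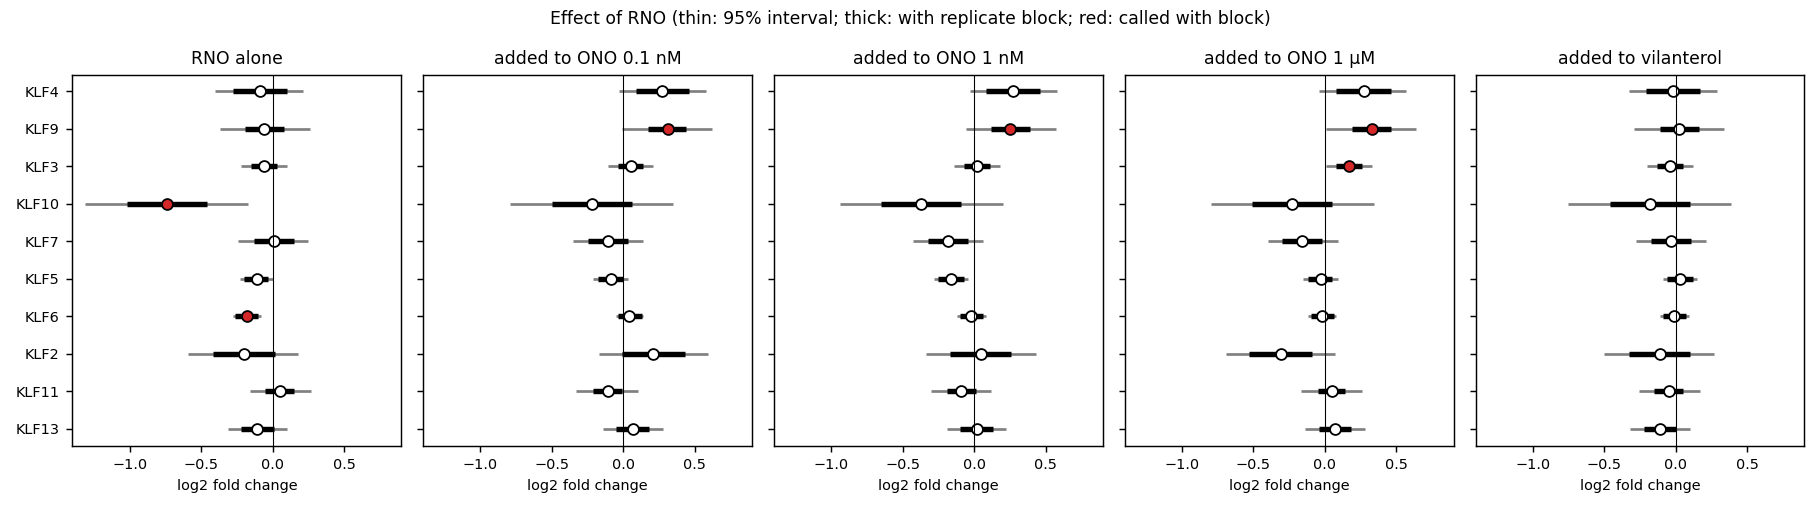
Log2 fold change of each gene (rows) for RNO against vehicle and for RNO added to each agonist (panels), on the log2(TPM + 1) scale; thin lines are 95% intervals without and thick lines with the replicate block, and red points passed with the block. KLF9 is to the right of 0 with all ONO concentrations and at 0.02 with vilanterol, and KLF10 is at -0.74 with RNO alone.

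Whether the agonist and RNO combined differently from the sum of their separate log2 effects was tested as an interaction. Without the replicate block no member passed in limma for any agonist. The shares of all tested genes that did were 0.135%, 0.0%, 0.0635% and 0.00794% for 0.1 nM, 1 nM and 1 µM ONO and vilanterol. At an unadjusted p under 0.05 there were 1, 1, 2 and 1 members, beside 6.93%, 8.8%, 7.92% and 5.77% of all tested genes. For 0.1 nM ONO the interaction was 0.36 for KLF9 (adjusted p = 0.78, with the block 0.025) and 0.22 for KLF6 (adjusted p = 0.3, with the block 0.026), so these 2 members passed with the block, where 2.57% of all tested genes did. For the other agonists the interactions with the block stand with the processing alternatives, since not all their same-numbered libraries deviated together. KLF6 held 38.3, 38.1, 37.7 and 34.8 TPM with 0.1 nM ONO and RNO, a mean of 37.3 ± 1.63 against 33.0 ± 1.11 TPM with RNO alone. All 4 of these libraries of KLF6 were above all 4 with RNO alone. No share of all tested genes without overlap is given for that pair of groups. In vehicle KLF6 was 37.5 ± 2.53 TPM and with 0.1 nM ONO alone 36.1 ± 1.56 TPM. The combination thus lay near vehicle, and the lower group was RNO alone.

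**Figure D4:**
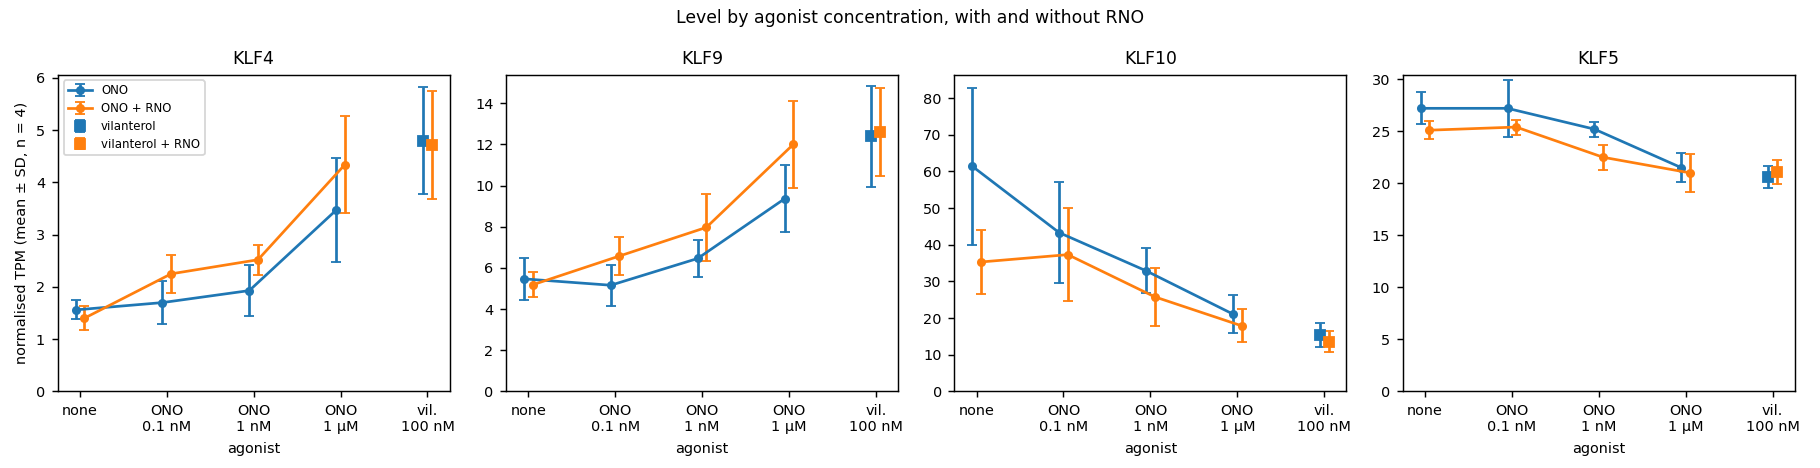
Mean ± SD (n = 4) of normalised TPM for KLF4, KLF9, KLF10 and KLF5 without agonist, at 0.1 nM, 1 nM and 1 µM ONO (concentrations evenly spaced, not to scale) and with vilanterol at 100 nM, without RNO in blue and with RNO in orange. The orange line of KLF9 lies above the blue one at every ONO concentration and the vilanterol markers overlap, while KLF10 falls from 61.4 to 21.1 TPM along the blue line.

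Between the highest concentrations of the agonists, 1 µM ONO and 100 nM vilanterol, no member passed in limma without the replicate block. Of all tested genes 2.14% did. At an unadjusted p under 0.05 there were 3 members, beside 10.4% of all tested genes. KLF4 with ONO was 0.724 of its level with vilanterol (log2 difference -0.38, 95% interval -0.69 to -0.08, adjusted p = 0.27), KLF9 0.752 (-0.37, -0.69 to -0.06, adjusted p = 0.32) and KLF3 0.869 (-0.19, -0.35 to -0.03, adjusted p = 0.34). Each of these genes was lower with ONO in 4 of 4 same-numbered pairs. The groups did not overlap for KLF3, and the share of all tested genes without overlap is not given for this comparison. With the block all 3 passed (adjusted p = 0.007, 0.00018 and 0.0057), where 6.8% of all tested genes did. For KLF10 the difference was 0.41 (95% interval -0.16 to 0.98), for KLF5 0.06 (-0.06 to 0.18) and for KLF6 -0.02 (-0.12 to 0.08).

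Ordered by mean, the groups of KLF4 ran upwards with ONO concentration. Those of KLF9 did so except from vehicle (5.47 TPM) to 0.1 nM ONO (5.16 TPM). Those of KLF10 ran downwards except from RNO (35.3 TPM) to 0.1 nM ONO with RNO (37.3 TPM). Most neighbours in these orders differed by no more than the larger of their SDs. That rule is a description, ignores the replicate number and is not a test of separation. For KLF4, KLF10, KLF2, KLF11 and KLF13, none of the 9 neighbouring pairs of groups differed by more than the larger of their SDs. For KLF9, KLF3, KLF5 and KLF6, 1 pair did. For KLF9 this step lay between 12.0 TPM (1 µM ONO with RNO) and 9.36 TPM (1 µM ONO), and for KLF5 between 25.1 TPM (RNO) and 22.5 TPM (1 nM ONO with RNO). For KLF7 the step on either side of 1 µM ONO (3.18 TPM) was larger than the SDs.

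The replicate number accounted for much of the spread in some members. On the log2 scale the treatment groups accounted for 85.3% of the total sum of squares of KLF4, 83.1% of KLF9, 80.0% of KLF5, 78.7% of KLF6, 74.7% of KLF10 and 71.0% of KLF7. In KLF11 the replicate number took 72.1% and the groups 12.4%, in KLF2 54.2% and 23.6%, and in KLF13 47.3% and 36.2%. Replicate 3 was the lowest library in 10 of 10 groups for KLF2, KLF9, KLF10 and KLF11, so genes that rose (KLF9) and fell (KLF10) shared this feature. Replicate 1 was the lowest in 9 of 10 groups for KLF3 and KLF13. The labels do not say what a replicate number stands for beyond its name.

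Across the 10 group means, KLF4 and KLF9 were correlated at Pearson r = 0.99 and KLF5 and KLF10 at 0.96, while KLF4 and KLF7 were at -0.98. These are descriptions over points that share libraries and treatments. Among 222 tested genes outside the family whose group means spanned at least 1 log2 unit, those most like KLF4 were METRNL (0.997), SLC7A5 (0.996) and ITPKB (0.995), and those most like KLF9 were RHOB (0.998), KCNG1 (0.998) and SLC7A5 (0.997). KLF10 was most like FOSL1 (0.994), EGR1 (0.99) and DUSP6 (0.983). KLF5 was most like DUSP6 (0.99), JUN (0.983) and RGS4 (0.972), KLF6 like IER3 (0.952), DUSP6 (0.918) and JUN (0.914), and KLF7 like JUN (0.97), FOSL1 (0.956) and TXNIP (0.927). KLF3 was most like DAW1 (0.987), TOB2 (0.987) and the entry ICOSLG/LOC102723996 (0.986).

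Of 17 other KLF and SP factors, which bind similar elements, 11 were in the table and 8 were tested. None passed against vehicle in any treatment in limma without the block. At an unadjusted p under 0.05 there were 2 for 1 µM ONO, 1 for vilanterol and 0 to 4 over the 9 treatments. With the block 1 passed for each of these agonists, and the median log2 differences of the 8 were 0.04 and 0.02. For the blocked counts here and in the lists below, no share of all tested genes is given for these agonists. All 13 corepressors, coactivators and ubiquitin ligases described for KLFs were tested. KAT2B (PCAF), an acetyltransferase, rose with 1 µM ONO (1.13-fold, adjusted p = 0.0027) and with vilanterol (1.17-fold, adjusted p = 5.1e-05). The acetyltransferase CREBBP (1.24-fold, adjusted p = 0.014) and CTBP2, the corepressor partner of KLF3 (1.16-fold, adjusted p = 0.0024), rose with vilanterol. CREBBP held 9.6, 9.34, 5.15 and 8.56 TPM in vehicle and 10.2, 10.0, 10.6 and 9.74 TPM with vilanterol. The low vehicle replicate 3 adds to that fold, and the CREBBP result without it is not given. No other gene of that list passed in these comparisons, the counts with the block were 2 and 4, and the list's medians were 0.06 and 0.07.

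Of 6 genes of the ERK5 and MEF2 route described upstream of KLF2 and KLF4, 5 were tested. MEF2D rose with 1 µM ONO (14.2 to 19.0 TPM, 1.33-fold, adjusted p = 0.001) and with vilanterol (21.5 TPM, 1.51-fold, adjusted p = 1.6e-06). MAPK7, which encodes ERK5, fell to 0.875 of vehicle with vilanterol (adjusted p = 0.023).

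Of 16 genes described as KLF targets in other systems, 13 were tested, of which 2 rose and 3 fell with 1 µM ONO, and 4 rose and 2 fell with vilanterol. With the block 8 and 9 passed, again without a share of all tested genes to set beside these counts. The list's median log2 differences were 0.0 and 0.02. S1PR1, a sphingosine 1-phosphate receptor described as a KLF2 target, held 3.4, 2.92, 2.88 and 3.07 TPM in vehicle, 7.27, 6.4, 6.43 and 6.16 TPM with 1 µM ONO (2.14-fold, adjusted p = 4.7e-09) and 10.5, 8.48, 9.52 and 9.2 TPM with vilanterol (3.08-fold, adjusted p = 5.3e-14). S1PR1 rose also at 1 nM ONO (1.44-fold, adjusted p = 0.012), with no overlap with vehicle, while KLF2 itself passed in none of these comparisons. For 1 nM ONO the share of all tested genes without overlap is not given. TGFBR1, a receptor of the TGF-β pathway, rose with both agonists (1.22-fold, adjusted p = 0.0038, and 1.27-fold, adjusted p = 0.00015). The cell cycle inhibitor CDKN1A (1.53-fold, adjusted p = 9.2e-05) and the anticoagulant receptor THBD (1.38-fold, adjusted p = 0.0068) rose with vilanterol. The G1 cyclin CCND1, described as a target of KLF5, fell to 0.63 (adjusted p = 0.0059) and 0.668 (adjusted p = 0.0094) of vehicle. The mitotic cyclin CCNB1 fell to 0.838 (adjusted p = 0.0032) and 0.764 (adjusted p = 3.5e-06), and the growth factor PDGFA fell with ONO to 0.566 (adjusted p = 0.018). Binding of any KLF to these genes was not measured.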

How the data were processed

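Poly(A) RNA from 40 libraries was sequenced across 2 sequencing kits, per the labels' protocols, with no record of the kit used for each library. Tools in the submitters' processing notes are sleuth and kallisto (versions not given in the sources used here) and bcl2fastq 2.18.0.12, and the builds there are hg19 and GRCh37. The deposited values, for 15788 genes, are a normalised signal, TPM with a further adjustment between samples by the authors, with column totals of 956888 to 1091466 that are not equal. The design had assumed plain TPM; TPM in the text means these values. Columns that belong to no sample numbered 0.

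Values were taken as log2(value + 1), and genes with a mean of at least 1 were tested in limma 3.58.1 (R 4.3.3, data.table, version 1.17.8) with 1 mean per group over all libraries (30 residual degrees of freedom), moderated variances and an intensity trend, in 18 comparisons. Folds are ratios of mean TPM. A call is a Benjamini-Hochberg adjusted p under 0.05 over the 12591 tested genes. The code was tested on simulated data. Named genes are the members, list genes that passed in the comparison described, and the 3 genes most like each member that passed. Members and lists were chosen with earlier results of these data known.

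Same-numbered libraries deviated together: in 13 of the 14 group pairs compared, each of the 4 correlations of deviations was over 0.1. The exception was vehicle and 1 nM ONO with RNO, where replicate 3 had 0.0204. Differently numbered libraries of the 14 pairs reached up to 0.191 (vehicle and vilanterol), where the lowest same-numbered correlation was 0.125. The pairing thus comes from the data and the shared numbers. Alternatives were 2 other pseudocounts, 2 filters, 2 rescalings, fits on the compared groups alone, each library left out, the block, and, chosen after seeing the data, the block without vehicle replicate 3. Promoters are RefSeq windows of GRCh38.p14, a later build than the authors', used for sequence only.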

Additional observations from a re-analysis of the deposited data

Results flagged for a closer look

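In 4 of 100 groups of 4 values (10 members in 10 groups) 1 library was set apart, its gap to the nearest of the other 3 taking most of the group's range (Dixon's test at the 95% level). Chance alone flags about 5% of such groups. KLF2 was 10.2 TPM in replicate 3 of 0.1 nM ONO with RNO, against 13.7 to 14.3 TPM in the others. It was 10.4 TPM in replicate 3 of 1 nM ONO, against 13.3 to 13.5 TPM. KLF11 was 7.94 TPM in replicate 3 of 1 µM ONO with RNO, against 9.57 to 9.81 TPM. KLF6 was 34.8 TPM in replicate 4 of 0.1 nM ONO with RNO, against 37.7 to 38.3 TPM. Without the replicate block, no member's interaction of agonist and RNO passed in limma. With the block, KLF9 and KLF6 passed for 0.1 nM ONO, and KLF9 and KLF3 for 1 µM ONO.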

How the results depend on the processing

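Pseudocounts of 0.1 and 0.5, no filter on low values and both rescalings of the libraries left all 180 member results (10 members in 18 comparisons) on their side of the threshold. No value that had passed changed sign, and rescaling to equal totals changed the sign of some uncalled values near 0. A filter at a mean of 5 did so for the 144 it could test, which leave out KLF4 and KLF7. With the replicate block 26 results newly passed and 0 were lost. The numbers of members passing, none or 2 without the block, became 2 for RNO, 3 for 1 nM ONO, 3 for 0.1 nM ONO with RNO and 5 for 1 nM ONO with RNO, each against vehicle, 1, 1 and 2 for RNO added to 0.1 nM, 1 nM and 1 µM ONO, 2 and 2 for the interactions of RNO with 0.1 nM and 1 µM ONO, and 3 for 1 µM ONO against vilanterol. With the block and without vehicle replicate 3, a choice made after seeing the data, they became 3, 1, 2 and 6 for the same 4 vehicle comparisons and 3 and 3 for the 2 interactions. No share of all tested genes is given for that fit, so these counts cannot be set against one. For 1 nM ONO with RNO (10.0% of all tested genes with the block) the gains were KLF4 (adjusted p = 0.0008), KLF9 (3.3e-06) and KLF6 (0.018), and for the 1 µM ONO interaction (3.76%) KLF9 (0.38, 0.014) and KLF3 (0.23, 0.031). All 5 also passed with the block when vehicle replicate 3 was left out. In that fit KLF13 passed too for the 1 µM ONO interaction (0.26, adjusted p = 0.0085). The block changed no other count by over 1.5 times. Fitted on the compared groups alone, 1 nM ONO with RNO against vehicle had 1 member, 5 member results were lost and 1 was gained (KLF4 for 1 nM ONO with RNO, adjusted p = 0.041). Leaving out each library in turn gave 0 to 1 members for RNO, 5 to 6 for 1 µM ONO, 7 to 8 for vilanterol, 2 to 3 for 1 nM ONO with RNO and 6 to 7 for vilanterol with RNO, and the same count each time in the other comparisons. Over all left-out libraries, 1751 member results kept their side, 6 newly passed and 3 were lost. The table holds no counts, so what depth limits cannot be given, and replicates may be technical.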
